A study of Mus musculus with 18 samples.

Results

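The transcripts described here encode 10 chemokine ligands, Ccl3, Ccl4, Ccl5, Ccl6, Ccl17, Ccl22, Cxcl2, Cxcl9, Cxcl10 and Cxcl16, measured in dendritic cells (DCs) of the mouse gut and its lymph nodes. They were chosen by symbol, through the Ensembl identifier of each gene, and are 10 of the 54232 genes of the read count table. All 10 passed the filter on low counts, as did 17074 genes in total. RNA sequencing was carried out on 18 libraries in 6 groups of 3. Each group is 1 of 3 DC subsets, CD11b+, CD103+ or CD11b+ CD103+ (double-positive), taken either from the small intestinal lamina propria (LP) or from the intestinal lymph nodes (LN). Every library is labelled with the genotype CD11a KO on the C57BL/6J strain (CD11a is a chain of the integrin LFA-1), so the groups share this label and no wild-type library was analysed here. The labels give neither the age of these mice, nor whether they were infected, nor the form of the CD11a allele. They do not say that the replicates came from separate animals either, so p-values measure only the spread between these libraries, which may be technical.

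Chemokines are small secreted proteins that direct cell movement through G protein-coupled receptors, and they are grouped as CC or CXC by the spacing of their first cysteines. Ccl3 and Ccl5 signal through Ccr1, Ccl17 and Ccl22 through Ccr4, Cxcl2 through Cxcr2, Cxcl9 and Cxcl10 through Cxcr3, and Cxcl16 through Cxcr6. DCs take up antigen in the lamina propria and carry it in lymph to the mesenteric nodes, where the chemokines they secrete bring T cells into contact with them.

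Several of these genes lie side by side. In GENCODE vM21 on GRCm38, Ccl5, Ccl6, Ccl3 and Ccl4 lie on chromosome 11 between 83525778 and 83664683, Ccl22 and Ccl17 on chromosome 8 between 94745590 and 94812036, Cxcl9 and Cxcl10 on chromosome 5 between 92321347 and 92348889, Cxcl2 on chromosome 5 from 90903871 to 90905938, and Cxcl16 on chromosome 11 from 70453983 to 70459984. All are protein-coding. Exons of Cxcl10 share 133 bases with Art3 and exons of Cxcl16 share 552 bases with Zmynd15, both on the opposite strand, so reads in those stretches are uncertain for these libraries, whose strand setting was not stated. A RefSeq promoter, 250 bases before to 50 bases after the start on GRCm38.p6, was matched for 7 of the 10 genes and not for Ccl4, Ccl5 or Cxcl16. The following 5 are shown because the comparisons turn on them: the neighbours Ccl22 and Ccl17, the neighbours Cxcl9 and Cxcl10, and Cxcl2, whose level split the tissues in 2 subsets. Capitals mark matches on either strand to the kappa B consensus, to GAS (TTCNNNGAA), to ISRE (TTTCNNTTTC) and to AP-1 (TGANTCA with C or G at N).
Ccl22, chr8:94745434-94745733, plus strand: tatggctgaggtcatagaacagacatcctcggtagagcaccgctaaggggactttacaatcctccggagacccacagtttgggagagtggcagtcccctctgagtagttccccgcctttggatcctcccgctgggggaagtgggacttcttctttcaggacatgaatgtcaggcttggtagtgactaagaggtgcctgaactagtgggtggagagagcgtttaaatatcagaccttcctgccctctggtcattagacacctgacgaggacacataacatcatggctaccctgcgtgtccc
Ccl17, chr8:94810203-94810502, plus strand: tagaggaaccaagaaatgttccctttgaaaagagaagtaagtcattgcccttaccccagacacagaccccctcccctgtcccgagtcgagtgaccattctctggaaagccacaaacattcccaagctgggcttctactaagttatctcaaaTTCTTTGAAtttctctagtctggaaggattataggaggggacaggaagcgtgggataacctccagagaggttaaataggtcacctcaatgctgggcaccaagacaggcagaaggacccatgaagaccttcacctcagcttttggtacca
Cxcl9, chr5:92328030-92328329, minus strand: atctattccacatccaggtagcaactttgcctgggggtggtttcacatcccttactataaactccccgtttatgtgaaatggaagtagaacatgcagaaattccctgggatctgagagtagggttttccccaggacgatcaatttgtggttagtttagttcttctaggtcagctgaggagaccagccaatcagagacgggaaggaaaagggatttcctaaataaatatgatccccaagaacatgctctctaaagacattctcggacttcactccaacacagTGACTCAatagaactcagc
Cxcl10, chr5:92348840-92349139, minus strand: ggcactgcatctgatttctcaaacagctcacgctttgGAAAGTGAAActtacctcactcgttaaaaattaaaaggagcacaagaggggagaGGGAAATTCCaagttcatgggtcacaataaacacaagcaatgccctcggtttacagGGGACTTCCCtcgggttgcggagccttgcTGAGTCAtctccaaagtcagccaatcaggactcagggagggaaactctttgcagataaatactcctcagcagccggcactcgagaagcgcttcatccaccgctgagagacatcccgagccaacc
Cxcl2, chr5:90903649-90903948, plus strand: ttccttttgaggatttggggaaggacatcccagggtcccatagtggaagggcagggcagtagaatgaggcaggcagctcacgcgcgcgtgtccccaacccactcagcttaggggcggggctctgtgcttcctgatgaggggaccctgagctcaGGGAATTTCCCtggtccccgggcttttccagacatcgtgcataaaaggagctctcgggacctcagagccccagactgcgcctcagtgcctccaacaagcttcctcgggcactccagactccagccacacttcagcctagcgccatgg
The kappa B consensus was found in 2 of the 7 promoters. Cxcl2 held an overlapping pair whose first bases lay 97 and 96 bases before the start, and Cxcl10 held matches at 159 and 103 bases before it. Of all 32544 RefSeq mouse promoters of this length, 4.53% held the consensus. An ISRE match lay 213 bases before the start of Cxcl10 (3.45% of all promoters), and AP-1 matches lay 74 bases before the start of Cxcl10 and 31 bases after that of Cxcl9 (5.19%). The GAS match lay 99 bases before the start of Ccl17 (8.33%). Ccl22, Ccl3 and Ccl6 held none of these letters in this window. A match is a description of the sequence only.

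Itgal, which encodes CD11a, was counted in every library at 6.45 to 26.65 CPM, a gene's counts relative to the TMM-scaled total of its library, with no wild-type library to set this against. Library totals ran from 23574292 to 46901985 counts, and no replicate pair agreed within sampling noise. Xist, expressed from the inactive X, stood at 0.286 CPM at most in LP libraries and at 15.4 to 89.1 CPM in LN libraries, while the Y-linked Ddx3y stood at 50.04 to 74.4 CPM in all LP libraries. LN CD11b+ replicate 3 and LN double-positive replicate 3 carried both, Xist at 15.4 and 26.1 CPM and Ddx3y at 58.0 and 52.2 CPM. These sex-linked transcripts therefore moved with the tissue. Their part in the tissue differences was not tested, and sex and tissue cannot be told apart in this design. The 5 general DC markers were counted in all groups, but their summed level was lower in LN. It stood at 63610 to 77680 CPM in LP libraries. In LN it stood at 18950 to 19450 CPM in CD103+ and at 35700 to 46270 CPM in the other libraries. In LN CD103+ against LP CD103+ DCs, H2-Ab1 averaged 3582 against 27790 CPM, and Itgax, Zbtb46 and Cd74 were also lower. Flt3 was higher, at 1032 against 624 CPM. The summed cDC2 markers (Itgam, Sirpa, Irf4, Mgl2, Cd209a) stood at 3071 to 3677 CPM in LP double-positive libraries but at 196 to 241 CPM in LN double-positive libraries, where Itgam, the gene of CD11b, averaged 5.16 CPM and Itgae, the gene of CD103, 46.1 CPM, against 68.5 and 812 CPM in LP double-positive DCs. Both transcripts were lower in the other LN groups too, Itgae at 35.4 CPM in LN CD103+ against 1337 CPM in LP CD103+ DCs and Itgam at 20.8 CPM in LN CD11b+ against 61.3 CPM in LP CD11b+ DCs, and groups are called here by their labels. The summed cDC1 markers (Xcr1, Clec9a, Batf3, Irf8, Itgae) stood at 970 to 1118 CPM in LP and 926.5 to 1087 CPM in LN double-positive libraries. Of these, Itgae was lower in LN double-positive DCs and the others were higher, with Irf8 at 689 against 83.6 CPM. In CD103+ libraries the cDC1 sum was 7588 to 7977 CPM in LP and 1905 to 1979 CPM in LN. Summed T cell markers stood at 4.53 to 52.6 CPM in LP and at 234 to 532 CPM in LN libraries, and summed NK and ILC1 markers at 1.9 to 8.90 CPM and at 45.8 to 257 CPM. Summed macrophage markers ran from 656 to 1478 CPM in LP CD11b+, 285 to 320 CPM in LP double-positive, 37.2 to 45.7 CPM in LP CD103+, 279.8 to 452 CPM in LN CD11b+, 78.5 to 83.0 CPM in LN double-positive and 10.5 to 13.8 CPM in LN CD103+ libraries.

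LN CD103+ and LN double-positive DCs held by far the most chemokine ligand transcripts, and 3 ligands made up nearly all of them. The 10 ligands summed to 10590 ± 843 CPM in LN CD103+ and 8190 ± 629 CPM in LN double-positive DCs (SD, n = 3), against 1955 ± 397 CPM in LN CD11b+ DCs. In the lamina propria the sums were 1026 ± 159 CPM in CD11b+, 929 ± 126 CPM in CD103+ and 1356 ± 316 CPM in double-positive DCs. Ccl5, Ccl22 and Cxcl16 took 44.2%, 32.8% and 21.4% of the sum in LN CD103+ DCs. In LP CD11b+ DCs the sum was spread over more ligands, with Ccl6 at 30.0%, Ccl4 at 15.0%, Ccl22 at 14.3% and Cxcl16 at 14.1%.

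**Figure D1:**
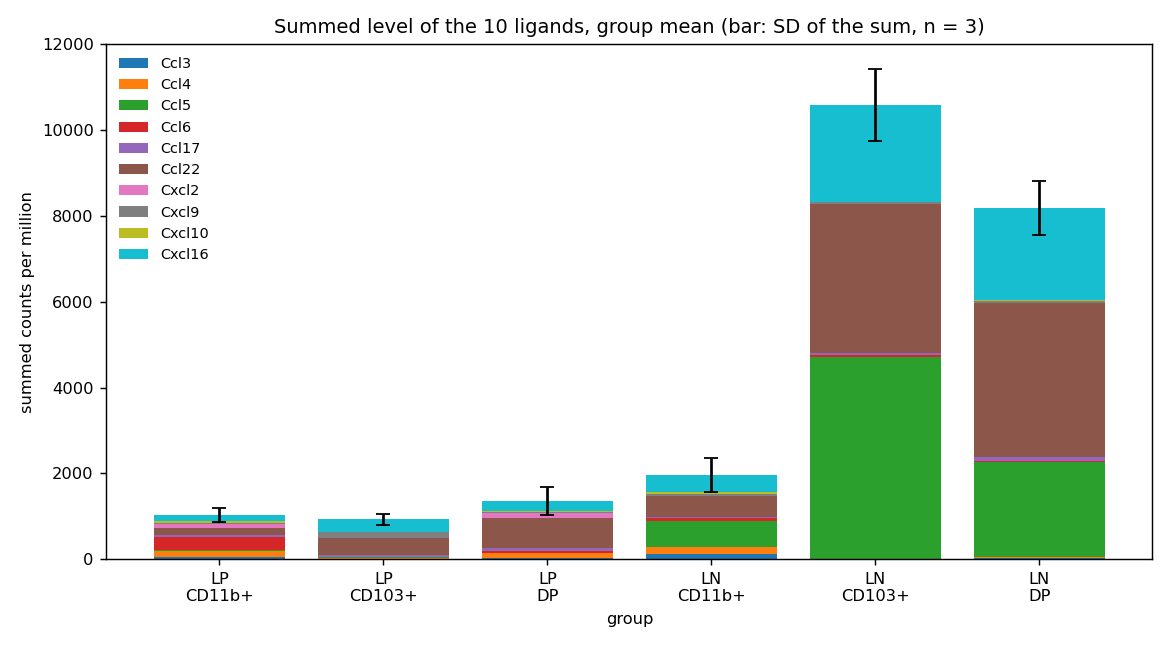
Stacked mean CPM of the 10 chemokine ligands (vertical axis, CPM) in each group (horizontal axis, LP or LN, DP for double-positive); black bars are the SD of the summed level over 3 libraries. The sums of 10590 CPM in LN CD103+ and 8190 CPM in LN double-positive DCs stand above the other 4 groups, and Ccl5, Ccl22 and Cxcl16 fill most of both columns.

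Per kilobase of exon (RPKM), which allows genes to be compared, the leading ligand differed between the groups. Ccl5 led in all 3 LN groups, at 630.5 ± 110 RPKM in CD11b+, 4903 ± 932 RPKM in CD103+ and 2316 ± 332 RPKM in double-positive DCs. In the lamina propria Ccl4 led in CD11b+ DCs at 229 ± 39.7 RPKM, followed by Ccl6 at 170.1 ± 23.3 RPKM. Ccl22 led in LP CD103+ DCs at 163.5 ± 25.3 RPKM and in LP double-positive DCs at 295 ± 126 RPKM. Ccl17, whose transcript is short, ranked second in LP CD103+ DCs at 111 ± 25.4 RPKM. The lowest ligand was Ccl3 in LP CD103+ DCs, at 2.69 ± 1.51 RPKM, and Cxcl2 in LN CD103+ DCs, at 2.13 ± 1.35 RPKM.

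To find how the tissue moved each ligand, LN was compared with LP within each subset, a gene being called at an adjusted p under 0.01 (quasi-likelihood test of edgeR, Benjamini-Hochberg adjusted over all genes tested) and a fold change over 2. In CD11b+ DCs 5 of the 10 ligands were called higher and 3 lower in LN, where 10.3% and 4.93% of all tested genes were. In CD103+ DCs 4 were called higher and 2 lower, against 19.8% and 15.1% of all genes. In double-positive DCs 3 were called higher and 2 lower, against 18.6% and 13.6% of all genes. The median log2 fold change of the 10 ligands was 0.59, 0.48 and -0.23 in these 3 comparisons, beside 0.03, 0.04 and 0.07 for all genes. Whether the tissue difference varied between subsets was tested with an F test in the same fit at an adjusted p under 0.01, and 7 of the 10 ligands were called, against 31.5% of all genes.

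**Figure D2:**
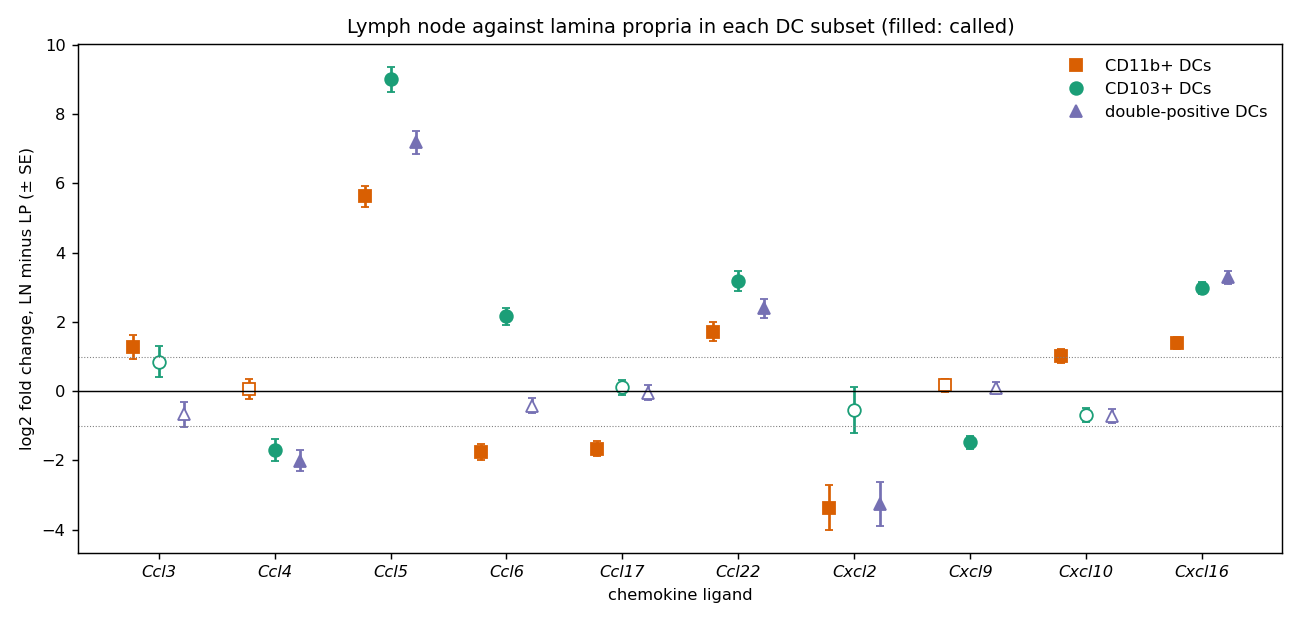
Log2 fold change of LN against LP (vertical axis) for each ligand (horizontal axis) in CD11b+ (squares), CD103+ (circles) and double-positive DCs (triangles); bars are 1 SE, filled symbols are called, and dotted lines mark a fold change of 2. Ccl5, Ccl22 and Cxcl16 lie above the upper line in all 3 subsets, while Ccl6 was called higher in CD103+ and lower in CD11b+ DCs.

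Ccl5, also named RANTES, which attracts T cells, monocytes and eosinophils, showed the largest tissue difference of the 10. In LP libraries 1 to 3 it stood at 13.9, 9.52 and 13.4 CPM in CD11b+, 14.7, 5.83 and 7.34 CPM in CD103+, and 15.5, 18.1 and 12.3 CPM in double-positive DCs. In LN libraries it stood at 512, 719.6 and 585 CPM in CD11b+, 4265, 4119 and 5737 CPM in CD103+, and 2221, 2543 and 1907 CPM in double-positive DCs. No LN library came near an LP library, and the 3 LN groups did not overlap one another, whereas the 3 LP groups did. The fold change was 49.4 in CD11b+ DCs (log2 5.63 ± 0.31 SE, adjusted p = 1.28e-09), 512 in CD103+ DCs (log2 9.0 ± 0.36, adjusted p = 2.19e-12) and 145 in double-positive DCs (log2 7.18 ± 0.33, adjusted p = 2.05e-11). These 3 differences were themselves unequal (F test, adjusted p = 8.48e-06). T cells and NK cells also make Ccl5, and their summed markers were higher in LN than in LP libraries. Within the lymph node the summed T cell markers overlapped between subsets, at 234 to 451 CPM in CD11b+, 284 to 532 CPM in CD103+ and 242 to 442 CPM in double-positive libraries. Mean Cd3d, Cd3e, Cd3g, Bcl11b, Themis and Ubash3a ran in the Ccl5 order, CD103+ over double-positive over CD11b+ DCs, while Cd5, Cd6 and Lck did not. Cd3e averaged 59.7, 42.2 and 34.2 CPM in that order. The summed NK and ILC1 markers were highest in the CD11b+ libraries, at 142 to 257 CPM, where Ccl5 was lowest. Ncr1, Klrb1c, Prf1 and Klre1 went with this sum. Gzma and Eomes averaged highest in LN CD103+ DCs, at 57.5 and 7.6 CPM against 15.15 and 3.31 CPM in LN CD11b+ DCs. The part of these cells in the Ccl5 difference was not tested, and in bulk samples fewer cells of a type and less RNA per cell cannot be told apart.

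Ccl22 and Cxcl16 rose from LP to LN in all 3 subsets. Ccl22, which attracts Ccr4-bearing T cells including regulatory T cells, stood at 111, 151 and 180.0 CPM in LP CD11b+, 382, 320.5 and 438 CPM in LP CD103+, and 447, 599 and 1013 CPM in LP double-positive DCs. In LN it stood at 344, 569.5 and 543 CPM in CD11b+, 3324, 3751 and 3285 CPM in CD103+, and 2952, 3768 and 4061 CPM in double-positive DCs. LN CD103+ and LN double-positive DCs overlapped each other and stood above all other libraries, while LN CD11b+ DCs overlapped LP double-positive and LP CD103+ DCs. Ccl22 was 3.29-fold higher in LN in CD11b+ (log2 1.72 ± 0.26, adjusted p = 7.8e-05), 9.09-fold in CD103+ (log2 3.18 ± 0.28, adjusted p = 3.55e-08) and 5.24-fold in double-positive DCs (log2 2.39 ± 0.27, adjusted p = 9.09e-07). A difference between these 3 effects missed the threshold (F test, adjusted p = 0.0115), but the call depended on the fit, with adjusted p from 0.00036 to 0.0503 over the alternatives and 0.00136 with a replicate block.

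Cxcl16 is made as a membrane-bound protein that binds cells bearing Cxcr6 and is also shed. It stood at 158, 110.1 and 164 CPM in LP CD11b+, 285, 249 and 324 CPM in LP CD103+, and 228, 204 and 232 CPM in LP double-positive DCs. The LN values were 274, 446 and 416.5 CPM in CD11b+, 2140, 2314 and 2316 CPM in CD103+, and 2156, 2183 and 2129 CPM in double-positive DCs. As with Ccl22, LN CD103+ and LN double-positive DCs overlapped at the top, and the order below them was LN CD11b+, LP CD103+, LP double-positive and LP CD11b+ DCs, with overlap only between LN CD11b+ and LP CD103+ DCs. The tissue fold change of 2.63 in CD11b+ DCs (log2 1.39 ± 0.17, adjusted p = 5.62e-06) was smaller than the 7.89 in CD103+ (log2 2.98 ± 0.17, adjusted p = 2.45e-10) and 9.74 in double-positive DCs (log2 3.28 ± 0.18, adjusted p = 1.24e-10), and the 3 effects differed (F test, adjusted p = 1e-05).

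**Figure D3:**
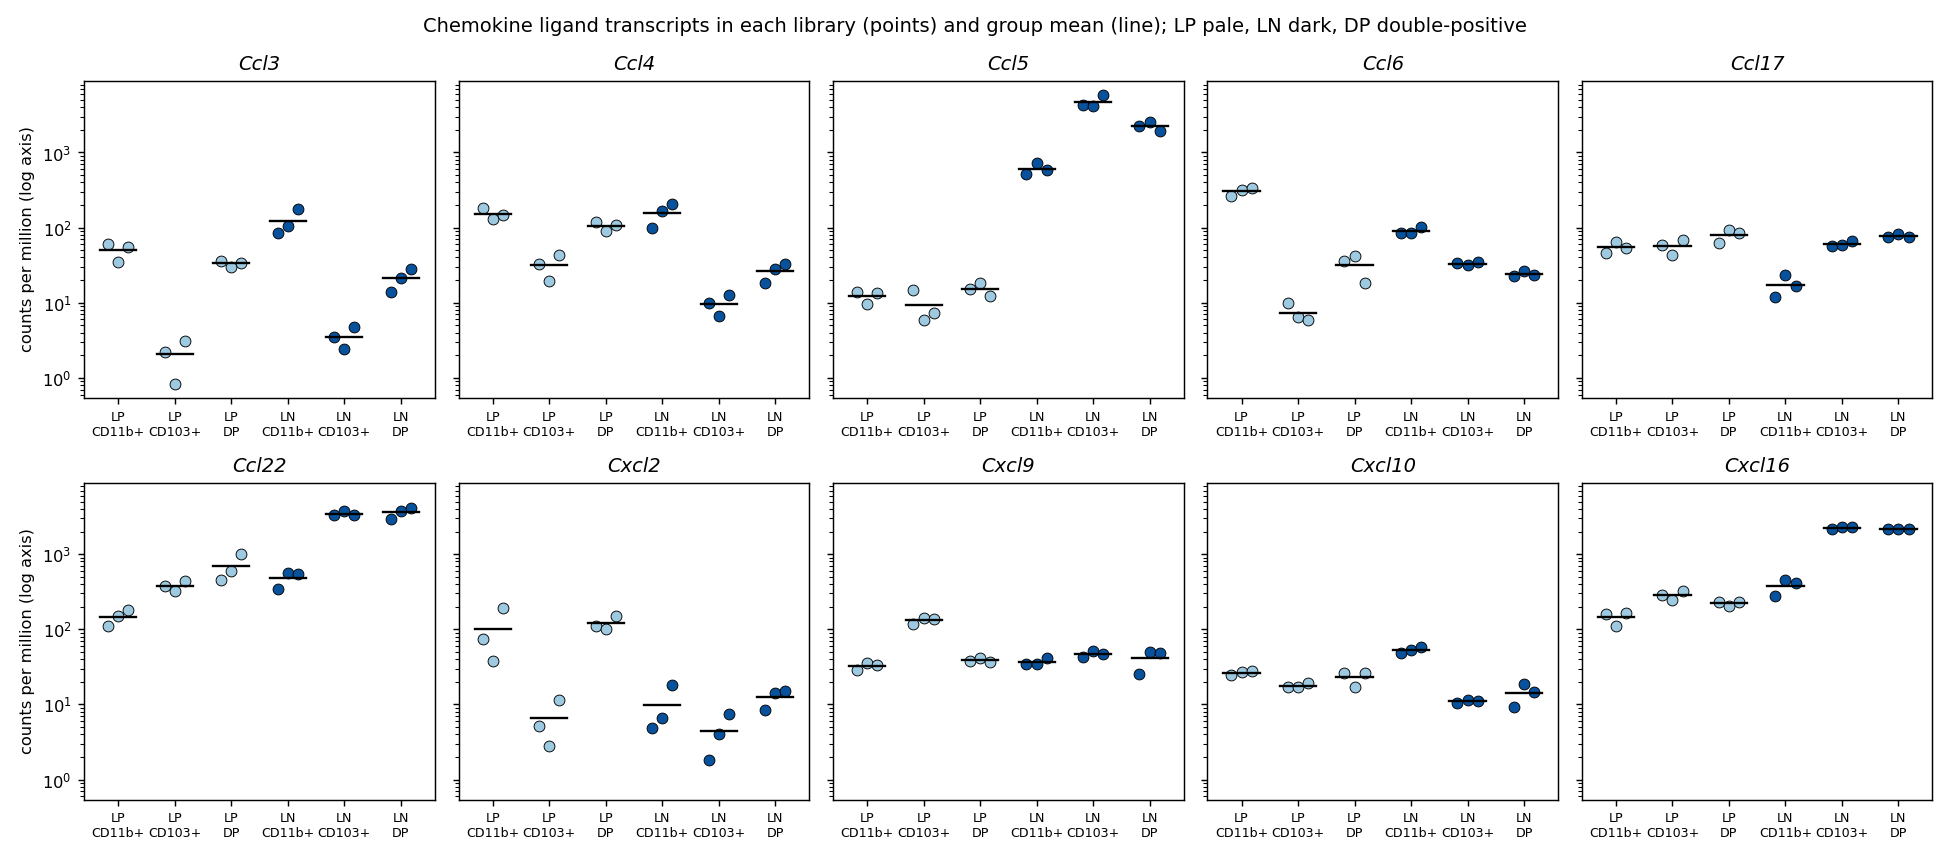
CPM of each ligand (one panel each, vertical log axis in CPM) in the 18 libraries by group (horizontal axis; pale LP, dark LN, DP double-positive); points are libraries and lines are group means. Ccl5 separates LN from LP by more than an order of magnitude, from at most 18.1 CPM to at least 512 CPM, while Ccl17 and Cxcl9 each have 1 group apart from the other 5.

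Ccl17, or TARC, shares the receptor Ccr4 with Ccl22 but did not rise with it. Its LP values were 46.3, 63.5 and 54.0 CPM in CD11b+, 59.2, 42.8 and 68.6 CPM in CD103+, and 62.2, 93.6 and 84.3 CPM in double-positive DCs. In LN it stood at 11.9, 23.1 and 16.9 CPM in CD11b+, 57.7, 58.5 and 67.1 CPM in CD103+, and 75.5, 81.5 and 76.0 CPM in double-positive DCs. The 3 LN CD11b+ libraries lay below all 15 others, and there Ccl17 was 3.16-fold lower than in LP (log2 -1.66 ± 0.22, adjusted p = 1.48e-05). In CD103+ and double-positive DCs the log2 differences were 0.11 ± 0.21 and -0.04 ± 0.21, with adjusted p = 0.682 and 0.872, and the tissue effect differed between subsets (F test, adjusted p = 0.000207). The ratio of Ccl22 to Ccl17 CPM within a library, from which library scaling cancels, ran from 2.38 to 12.0 in the 9 LP libraries and from 24.6 to 64.2 in the 9 LN libraries. It averaged 2.70 ± 0.54 in LP CD11b+, 6.78 ± 0.62 in LP CD103+, 8.53 ± 3.05 in LP double-positive, 28.6 ± 3.83 in LN CD11b+, 56.9 ± 7.64 in LN CD103+ and 46.2 ± 7.16 in LN double-positive DCs. Cx3cl1, which lies between these genes and encodes the membrane-bound ligand fractalkine, was higher in LN in all 3 subsets, by log2 2.63 ± 0.27 in CD11b+ DCs, by 4.70 ± 0.30 in CD103+ DCs and by 3.13 ± 0.27 in double-positive DCs.

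Ccl3 and Ccl4, known as MIP-1 alpha and beta, averaged highest in CD11b+ DCs and lowest in CD103+ DCs of both tissues. In LP neither was called in double-positive against CD11b+ DCs, at log2 -0.59 ± 0.35 and -0.52 ± 0.29 (quasi-likelihood test, adjusted p = 0.325 and 0.289). Ccl3 stood at 60.7, 34.4 and 55.9 CPM in LP CD11b+, 2.19, 0.839 and 3.14 CPM in LP CD103+, and 35.8, 30.3 and 34.2 CPM in LP double-positive DCs. Its LN values were 83.6, 104 and 175 CPM in CD11b+, 3.48, 2.40 and 4.69 CPM in CD103+, and 13.9, 21.3 and 28.0 CPM in double-positive DCs. Both CD103+ groups overlapped each other at the bottom, below every other library. Against CD11b+ DCs, CD103+ DCs held 25.7-fold less Ccl3 in LP (log2 -4.69 ± 0.43, adjusted p = 1.99e-07) and 34.3-fold less in LN (log2 -5.10 ± 0.43, adjusted p = 3.4e-08). The tissue difference was called in CD11b+ DCs, at 2.40-fold higher in LN (log2 1.27 ± 0.35, adjusted p = 0.00891), but without the 2 LN libraries that carried both Xist and Ddx3y it was log2 0.90 with adjusted p = 0.0611, and the call was also lost without any 1 of LP CD11b+ replicates 1, 2 and 3 or LN CD11b+ replicates 2 and 3, at log2 0.90 to 1.42. In CD103+ and double-positive DCs it was log2 0.85 ± 0.44 and -0.67 ± 0.35 (adjusted p = 0.106 and 0.114).

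Ccl4 stood at 179.8, 128 and 145.5 CPM in LP CD11b+, 33.1, 19.7 and 42.8 CPM in LP CD103+, and 118, 91.2 and 107 CPM in LP double-positive DCs. In LN the values were 99.9, 166.5 and 203.0 CPM in CD11b+, 9.91, 6.71 and 12.6 CPM in CD103+, and 18.1, 27.7 and 33.2 CPM in double-positive DCs. The CD11b+ groups of the tissues overlapped, whereas in the other 2 subsets every LN library lay below every LP library of the same subset. Ccl4 was 3.26-fold lower in LN in CD103+ DCs (log2 -1.70 ± 0.32, adjusted p = 0.000185) and 4.01-fold lower in double-positive DCs (log2 -2.0 ± 0.31, adjusted p = 2.65e-05), against log2 0.05 ± 0.29 in CD11b+ DCs (adjusted p = 0.915). These effects differed between subsets (F test, adjusted p = 0.00139). Ccl4 therefore did not keep a fixed ratio to Ccl3, its neighbour 13228 bases away: the ratio of their CPM averaged 3.10 ± 0.58 in LP CD11b+, 17.4 ± 5.33 in LP CD103+ and 3.14 ± 0.14 in LP double-positive DCs, and 1.32 ± 0.24, 2.77 ± 0.08 and 1.26 ± 0.06 in the same subsets of LN.

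Ccl6, which attracts monocytes and is made by macrophages and other myeloid cells, was the ligand whose tissue difference was called in opposite directions. It stood at 259.6, 315 and 341.5 CPM in LP CD11b+, 9.80, 6.47 and 5.92 CPM in LP CD103+, and 35.8, 42.2 and 18.4 CPM in LP double-positive DCs. The LN values were 85.2, 84.0 and 102 CPM in CD11b+, 33.5, 31.4 and 34.5 CPM in CD103+, and 22.5, 26.5 and 23.3 CPM in double-positive DCs. LP CD11b+ DCs stood above and LP CD103+ DCs below all other groups. From LP to LN it was 3.38-fold lower in CD11b+ DCs (log2 -1.76 ± 0.22, adjusted p = 1.12e-05) and 4.49-fold higher in CD103+ DCs (log2 2.17 ± 0.24, adjusted p = 7.05e-07), with log2 -0.42 ± 0.23 in double-positive DCs (adjusted p = 0.122). The F test of the difference gave an adjusted p of 3.05e-07. Its neighbour Ccl9, another CC ligand of myeloid cells, averaged 102 ± 40.2 CPM in LP CD11b+ but 0.436 ± 0.098 CPM in LP CD103+ DCs, and was also called higher in LN in CD103+ DCs (log2 4.95 ± 0.33, adjusted p = 1.34e-09). The 2 genes parted in the other subsets. In double-positive DCs Ccl9 averaged 2.45 ± 0.75 CPM in LP and 19.3 ± 1.11 CPM in LN. In CD11b+ DCs Ccl9 averaged 74.1 ± 9.0 CPM in LN, and its LP and LN libraries overlapped. The summed macrophage markers moved with Ccl6 and Ccl3 between the LP subsets, and all 8 were counted in each LP group. Adgre1 was highest in LP double-positive DCs, at 196 CPM against 95.4 CPM in LP CD11b+ DCs, where the rest of the list was highest. In CD11b+ DCs the summed markers, like Ccl6, were lower in LN, at 279.8 to 452 CPM against 656 to 1478 CPM in LP. Mean Ccl3 was higher there in LN, at 121 against 50.3 CPM. In CD103+ DCs the summed markers were lower in LN, at 10.5 to 13.8 CPM with Fcgr1 at 0, than in LP, at 37.2 to 45.7 CPM, whereas Ccl6 was higher. In CD11b+ DCs the summed NK and ILC1 markers were higher in LN, at 142 to 257 CPM against 5.69 to 8.90 CPM in LP. The summed mast cell and basophil markers were too, at 12.4 to 77.4 CPM against 0.0316 to 0.0732 CPM. Ccl4 was not called there. In CD103+ DCs the NK and ILC1 sum was also higher in LN, at 48.3 to 121 CPM against 3.55 to 5.66 CPM, whereas Ccl4 was lower. The part of these cell types in the subset and tissue differences was not tested.

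Cxcl2, a ligand of Cxcr2 that recruits neutrophils, was high in the 2 LP groups sorted as CD11b-bearing and low elsewhere. It stood at 75.3, 37.9 and 191 CPM in LP CD11b+, 5.24, 2.84 and 11.5 CPM in LP CD103+, and 110.3, 101 and 151 CPM in LP double-positive DCs. In LN it stood at 4.90, 6.69 and 18.1 CPM in CD11b+, 1.82, 4.01 and 7.36 CPM in CD103+, and 8.56, 14.3 and 15.2 CPM in double-positive DCs. The 6 high libraries did not overlap the other 12, although LP CD11b+ DCs alone spread from 37.9 to 191 CPM. It was 10.3-fold lower in LN in CD11b+ (log2 -3.36 ± 0.64, adjusted p = 0.000561) and 9.51-fold lower in double-positive DCs (log2 -3.25 ± 0.64, adjusted p = 0.000318), with log2 -0.53 ± 0.67 in CD103+ DCs (adjusted p = 0.507). Summed monocyte and neutrophil markers ran from 46.4 to 147 CPM in LP CD11b+, 6.14 to 12.7 CPM in LP double-positive and 0.743 to 1.42 CPM in LP CD103+ libraries. In LN they ran from 80.2 to 98.9 CPM in CD11b+, 23.4 to 28.8 CPM in double-positive and 26.3 to 45.9 CPM in CD103+ libraries. The part of these cells in the Cxcl2 level was not tested. Cxcl2 was highest in replicate 3 in all 6 groups. Unequal effects were not called (F test, adjusted p = 0.0291), but the call depended on the fit, with adjusted p from 0.00112 with a replicate block to 0.145 over the alternatives. Cxcl1, which lies 10755 bases from Cxcl2 and shares its receptor, moved the other way, from at most 2.61 CPM in any LP library to at least 5.11 CPM in any LN library, and was called higher in LN in CD11b+ (log2 2.49 ± 0.66, adjusted p = 0.00698), CD103+ (log2 7.15 ± 0.87, adjusted p = 1.8e-06) and double-positive DCs (log2 3.82 ± 0.69, adjusted p = 0.000144).

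Cxcl9 and Cxcl10, which attract Cxcr3-bearing effector T cells and are induced by interferons, were highest in different groups. Cxcl9 stood at 118, 139 and 136 CPM in LP CD103+ DCs, against 29.0, 35.6 and 33.7 CPM in LP CD11b+ and 37.4, 42.0 and 36.3 CPM in LP double-positive DCs. In LN it stood at 34.0, 34.9 and 41.5 CPM in CD11b+, 42.3, 51.8 and 47.2 CPM in CD103+, and 25.5, 49.7 and 47.6 CPM in double-positive DCs. LP CD103+ DCs lay above all other libraries, and among the other 5 groups each overlapped its neighbour in order. In CD103+ DCs Cxcl9 was 2.78-fold lower in LN (log2 -1.48 ± 0.18, adjusted p = 2.36e-06), while the other subsets differed by log2 0.17 ± 0.18 and 0.09 ± 0.18 (adjusted p = 0.501 and 0.699), and the F test gave an adjusted p of 7.38e-05.

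Cxcl10 stood at 49.0, 52.6 and 58.6 CPM in LN CD11b+ DCs, above all other libraries. Elsewhere it stood at 25.0, 26.7 and 28.1 CPM in LP CD11b+, 16.9, 17.3 and 19.2 CPM in LP CD103+, 26.2, 17.0 and 26.6 CPM in LP double-positive, 10.3, 11.4 and 11.1 CPM in LN CD103+ and 9.18, 18.9 and 14.4 CPM in LN double-positive DCs. Among the other 5 groups each overlapped its neighbour in order. It was 2.01-fold higher in LN in CD11b+ DCs (log2 1.01 ± 0.20, adjusted p = 0.000836), a fold so near the limit of 2 that the call was lost without LN CD11b+ replicate 3 (log2 0.93), without LP CD11b+ replicate 1 (log2 0.96), or with DESeq2 size factors (log2 0.99). In CD103+ and double-positive DCs the log2 differences of -0.70 ± 0.21 and -0.71 ± 0.20 fell short of the fold limit (adjusted p = 0.00721 and 0.0063). The effects differed between subsets (F test, adjusted p = 0.000118). The ratio of Cxcl9 to Cxcl10 CPM was 7.37 ± 0.60 in LP CD103+ and 4.29 ± 0.22 in LN CD103+ DCs, 1.75 ± 0.62 and 2.90 ± 0.35 in LP and LN double-positive DCs, and 1.23 ± 0.09 and 0.689 ± 0.022 in LP and LN CD11b+ DCs.

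**Figure D4:**
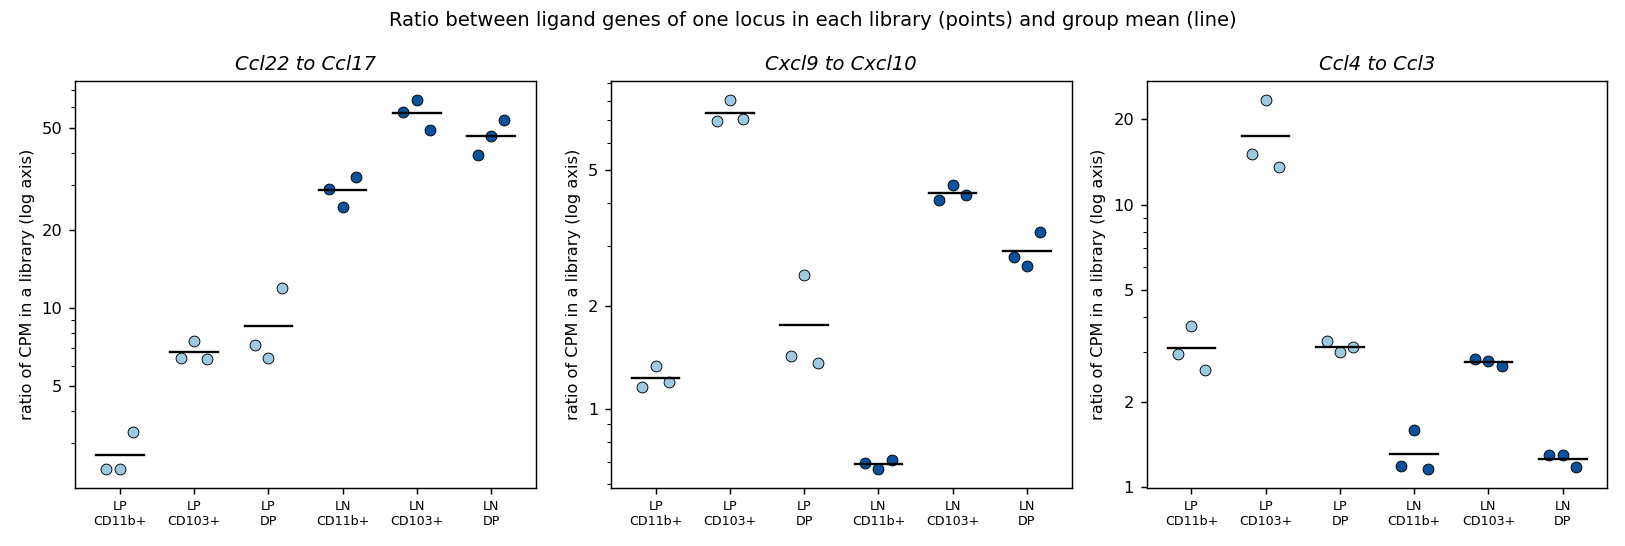
Ratio of the CPM of 2 ligand genes of one locus within each library (vertical log axis) by group (horizontal axis; pale LP, dark LN, DP double-positive) for Ccl22 to Ccl17, Cxcl9 to Cxcl10 and Ccl4 to Ccl3; points are libraries and lines are group means. The Ccl22 to Ccl17 ratio is at most 12.0 in LP and at least 24.6 in LN libraries, and the Cxcl9 to Cxcl10 ratio is highest in LP CD103+ DCs at 7.37.

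The subsets were next compared within each tissue. In LP, CD103+ against CD11b+ DCs gave 2 ligands called higher (Ccl22 and Cxcl9) and 4 lower (Ccl3, Ccl4, Ccl6 and Cxcl2), against 5.07% and 10.6% of all genes. Double-positive and CD11b+ DCs of LP differed least, with Ccl22 higher (log2 2.22 ± 0.27, adjusted p = 3.55e-05) and Ccl6 lower (log2 -3.25 ± 0.24, adjusted p = 3.96e-07), against 1.14% and 3.67% of all genes. For LP double-positive against CD103+ DCs, Ccl3, Ccl4, Ccl6 and Cxcl2 were higher and Cxcl9 lower, against 8.1% and 5.52% of all genes. These 3 comparisons share libraries. In LN, Ccl5, Ccl17, Ccl22 and Cxcl16 were higher and Ccl3, Ccl4, Ccl6 and Cxcl10 lower in CD103+ than in CD11b+ DCs, against 10.2% and 15.6% of all genes. The same 8 ligands were called in the same directions in LN double-positive against CD11b+ DCs, which shares the CD11b+ libraries, against 6.92% and 9.82% of all genes. For the higher ligands of LN CD103+ DCs the log2 differences were 2.96 ± 0.27 for Ccl5, 1.82 ± 0.22 for Ccl17, 2.83 ± 0.27 for Ccl22 and 2.57 ± 0.17 for Cxcl16. Between LN double-positive and CD103+ DCs, Ccl3 (log2 2.58 ± 0.40, adjusted p = 0.000149) and Ccl4 (log2 1.43 ± 0.32, adjusted p = 0.00315) were higher and Ccl5 lower (log2 -1.08 ± 0.25, adjusted p = 0.0045), against 4.69% and 1.84% of all genes. The calls for Ccl4 and Ccl5 were lost without the 2 libraries that carried both Xist and Ddx3y, at log2 1.24 and -0.98 (adjusted p = 0.0163 and 0.0337). Single libraries decided them too: Ccl4 was not called without replicate 1 or 2 of LN CD103+ or replicate 2 or 3 of LN double-positive DCs, at log2 1.24 to 1.46, nor Ccl5 without replicate 3 of LN CD103+ or replicate 1 or 3 of LN double-positive DCs, at log2 -1.07 to -0.91.

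Scaling by total counts in place of TMM moved the median log2 fold change of all genes in LN CD103+ against CD11b+ DCs from -0.13 to -0.56 and in LN double-positive against CD11b+ DCs from -0.08 to -0.44, and the share of calls that were higher from 39.6% to 19.5% and from 41.3% to 19.3%. It also moved the all-gene median of LN against LP from 0.03 to 0.17 in CD11b+, from 0.04 to -0.18 in CD103+ and from 0.07 to -0.10 in double-positive DCs, and the ligand calls named above kept their direction. Without the 2 LN libraries that carried both Xist and Ddx3y, the tissue differences in CD11b+ DCs were log2 5.65 for Ccl5, 1.63 for Ccl22, 1.32 for Cxcl16, -1.85 for Ccl6, -1.64 for Ccl17 and -4.13 for Cxcl2. In double-positive DCs they were 7.28 for Ccl5, 2.29 for Ccl22, 3.29 for Cxcl16, -2.20 for Ccl4 and -3.39 for Cxcl2, all still called. Every LN library carried Xist at 15.35 CPM or more, and no LP library exceeded 0.286 CPM. Leaving out those 2 libraries therefore does not separate sex from tissue.

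Of 28 other chemokine ligands, 21 passed the filter. In LN against LP 5 were called higher and 2 lower in CD11b+, 7 and 2 in CD103+, and 7 and 3 in double-positive DCs, where 10.3% and 4.93%, 19.8% and 15.1%, and 18.6% and 13.6% of all genes were called. Beside Ccl9, Cx3cl1 and Cxcl1, Cxcl13, which attracts B cells to follicles, averaged 0.319, 0.0941 and 0.121 CPM in LP CD11b+, CD103+ and double-positive DCs and 4.71, 12.4 and 17.0 CPM in the LN groups, with libraries of LN CD103+ DCs spread from 5.06 to 26.0 CPM. Xcl1, a lymphocyte ligand for the cDC1 receptor Xcr1, averaged 25.6 ± 8.71 CPM in LN CD11b+ DCs and at most 1.46 ± 0.40 CPM in an LP group. It averaged 15.9 ± 4.15 CPM in LN CD103+ and 8.15 ± 2.36 CPM in LN double-positive DCs. Summed T cell and NK and ILC1 markers were higher in LN, and the part of those cells in the Xcl1 level was not tested. Ccl2, which attracts monocytes, averaged 14.9 ± 4.34 CPM in LP CD11b+ DCs and was called lower in LN in CD11b+ (log2 -1.51 ± 0.38) and double-positive DCs (log2 -1.39 ± 0.39) and higher in CD103+ DCs (log2 1.39 ± 0.42). In CD103+ DCs its level was low, at 0.622 ± 0.296 CPM in LP, with 7 counts in the lowest library, and 1.68 ± 0.27 CPM in LN.

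All 9 receptors of these ligands passed the filter, and 3 were called higher and 2 lower in LN in CD11b+, 2 and 3 in CD103+, and 3 and 1 in double-positive DCs. Of all genes tested, 10.3% and 4.93%, 19.8% and 15.1%, and 18.6% and 13.6% were called higher and lower in these subsets, in the same order. Ccr1, the receptor of Ccl3 and Ccl5, averaged 450.4 ± 84.9 CPM in LP CD11b+ and 663 ± 61.4 CPM in LP double-positive DCs but 9.25 ± 2.72 and 5.69 ± 0.80 CPM in the same subsets of LN. Cxcr3 was highest where Cxcl9 was, at 128 ± 19.1 CPM in LP CD103+ DCs, and was lower in LN CD103+ DCs (log2 -2.57 ± 0.22, adjusted p = 2.2e-08). Cxcr6 stood at 178 ± 43.9 CPM in LN CD11b+ DCs, where Cxcl16 was lowest of the LN groups, and at 12.9 ± 5.38 CPM in LN CD103+ DCs. Ccr4 averaged at most 0.0238 CPM in any LP group and 1.39 to 2.37 CPM in the LN groups. T cells and NK cells express Cxcr3, Cxcr6 and Ccr4, and their summed markers were higher in LN, so the part of those cells was not tested. Adam10 and Adam17, which shed Cxcl16, and Dpp4, which trims several chemokines, stayed under the fold limit of 2 in each tissue comparison. Adam10 differed by log2 0.82 ± 0.14 in both CD103+ and double-positive DCs (adjusted p = 7.97e-05 and 8.48e-05). In double-positive DCs Adam17 differed by log2 0.72 ± 0.13 and Dpp4 by 0.84 ± 0.12 (adjusted p = 0.000154 and 1.01e-05).

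Among 12 transcription factors and mRNA regulators of chemokine genes, those called higher in LN numbered 1 among CD11b+, 6 among CD103+ and 7 among double-positive DCs, where 1 was also called lower. The shares of all genes called higher were 10.3%, 19.8% and 18.6%, with 13.6% called lower in double-positive DCs. Relb, a subunit of NF-kappa B, averaged 181 ± 4.24, 82.1 ± 10.8 and 137 ± 22.6 CPM in LP CD11b+, CD103+ and double-positive DCs and 887 ± 136, 2053 ± 24.4 and 2376 ± 139 CPM in LN. Nfkb2, Rela, Rel and Irf1 were higher in LN in CD103+ (log2 2.93 ± 0.11, 1.89 ± 0.09, 1.84 ± 0.19 and 2.80 ± 0.13) and in double-positive DCs (log2 2.32 ± 0.11, 1.68 ± 0.09, 1.10 ± 0.19 and 1.68 ± 0.12). Nfkb1 was lower in double-positive DCs (log2 -2.08 ± 0.13, adjusted p = 6.71e-10), Irf4 was higher in CD103+ DCs (log2 2.27 ± 0.17, adjusted p = 5.2e-09), and Stat6 was higher in double-positive DCs (log2 1.05 ± 0.13). Over all 12, the median log2 difference was 0.42, 1.35 and 1.07 in CD11b+, CD103+ and double-positive DCs.

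The genes whose pattern lay nearest to each ligand were found from the root mean square difference of log2(CPM + 1) over the 6 group means, each gene centred on its mean, among 9614 genes. For Ccl5 these were Clu (0.38) and Asprv1 (0.66), for Ccl22 Pdcd1lg2 (0.43) and Cxcl16 (0.47), and for Cxcl16 Arhgef40 (0.17) and Caprin2 (0.21). Clu averaged 2.61, 0.968 and 1.54 CPM in LP CD11b+, CD103+ and double-positive DCs and 132, 585.5 and 299 CPM in LN. The nearest to Ccl3 were Nod1 (0.31) and Ptpro (0.45), to Ccl4 Eef2k (0.26) and Nlrc4 (0.28), to Cxcl2 Fgfr1 (0.40) and Il1a (0.41), and to Ccl6 the immunoglobulin segment Igkv4-57-1 (0.41) and Mrc1 (0.56). Summed plasma cell markers stood at 1405 to 1809 CPM in LP CD11b+ and 1178 to 1300 CPM in LN CD11b+ libraries and at 187 to 502 CPM in the other groups, and their part in this likeness was not tested. The nearest to Ccl17 was Slc22a21 (0.29), to Cxcl9 Pttg1ip (0.11), and to Cxcl10 Gab3 (0.14) and Plekhf1 (0.15). Within the 10, Ccl22 and Cxcl16 were each other's nearest, at 0.47, and Ccl5 lay farthest from the rest, its nearest being Cxcl16 at 2.38.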

How the data were processed

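The authors deposited 1 table of read counts for 54232 genes (Ensembl identifiers) in 18 libraries of sorted mouse DCs. The submitters' processing notes name FastQC 0.11.7, STAR 2.6 and GRCm38. How reads were assigned to genes and strand for these libraries was not given in the sources used here. For its own DC libraries the study describes unique alignments counted without strand, and whether this held for these libraries is not stated. Of the genes, 54165 had a symbol and position in GENCODE vM21. Totals of 23574292 to 46901985 counts per library set the precision, and the least counted value of a ligand was 39 counts.

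From these counts, edgeR 4.0.16 (R 4.3.3) fitted 6 group means over all 18 libraries by quasi-likelihood, with TMM scaling and filterByExpr, which left 17074 genes. Genes were called at a Benjamini-Hochberg adjusted p under 0.01 and a fold change over 2, and an F test on the 3 tissue effects was called at an adjusted p under 0.01. SE is the log2 fold change divided by the root of its F statistic. CPM used TMM-scaled totals, and RPKM divided CPM by the kilobases of merged exons. The script was tested on simulated data with known changes. Alternatives were DESeq2 1.42.0 as test or size factors, total counts, no filter or at least 100 counts in 3 libraries, thinning to 23574292 counts, the compared libraries alone, a replicate block, an adjusted p under 0.05, and each library left out.

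The 10 ligands, the lists and the tests were chosen with earlier results of these data known. All 10 ligands were named in every library. Other ligands were named where called between tissues with a group mean of at least 10 CPM or beside a ligand in the genome, receptors and shedding enzymes where tested, regulators where called between tissues, and for each ligand the 2 nearest genes. Some genes that this rule takes in are not reported here. Same-numbered LP libraries deviated together from their group means in 9 of 9 pairs (correlation 0.124 to 0.378 over 8674 genes), whereas 4 of 9 LN pairs and 8 of 27 LP to LN pairs exceeded 0.1. Correlations between libraries of different numbers were not computed, so whether the numbers pair the samples within a tissue was not settled. Across tissues, Xist stood at 15.35 CPM or more in every LN library and at 0.286 CPM at most in LP. Same-numbered LP and LN libraries therefore did not come from the same set of animals.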

Additional observations from a re-analysis of the deposited data

Results flagged for a closer look

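For 7 of the 10 ligands, the difference between lymph node and lamina propria was itself unequal in the 3 subsets by the F test of edgeR's quasi-likelihood fit (Benjamini-Hochberg adjusted p), as it was for 31.5% of all genes tested. The adjusted p was 0.00139 for Ccl4, which was lower in LN in CD103+ and double-positive DCs and differed by log2 0.05 in CD11b+ DCs. For Ccl5 it was 8.48e-06, with log2 differences of 5.63, 9.0 and 7.18 in CD11b+, CD103+ and double-positive DCs. Ccl6 had the smallest value, 3.05e-07, and was called lower in LN in CD11b+ and higher in CD103+ DCs. The values were 0.000207 for Ccl17, called lower in LN in CD11b+ DCs, 7.38e-05 for Cxcl9, called lower in LN in CD103+ DCs, and 0.000118 for Cxcl10, called higher in LN in CD11b+ DCs. For Cxcl16 the adjusted p was 1e-05, with all 3 subsets higher in LN. With both LN libraries that carried Xist and Ddx3y left out, these adjusted p-values ran from 3.91e-06 for Ccl6 to 0.00479 for Ccl4.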

How the results depend on the processing

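Over all alternatives, 1666 of 1740 tests of single ligands kept their direction and their side of the threshold, 24 lost a call, 29 gained one and 21 changed sign, 0 of these 21 having been called. The ligands called higher in LN in CD11b+ DCs numbered 3, in place of 5, with the compared libraries alone or with both LN replicate 3 libraries that carried Xist and Ddx3y left out, and 3 to 5 with 1 library left out, 3 without LP CD11b+ replicate 1 or LN CD11b+ replicate 3. Leaving out those same 2 libraries gave 1 ligand higher and 0 lower in LN double-positive against CD103+ DCs, and leaving out 1 library gave 1 to 2 higher and 0 to 1 lower. Genes called in LP double-positive against CD11b+ DCs numbered 821, but 506 with the compared libraries alone and 1289 at an adjusted p under 0.05. Uncalled differences changed sign as follows, on the log2 scale. Scaling by total counts gave -0.124 (Ccl17, tissue, CD103+), -0.0891 (Cxcl9, tissue, double-positive), -0.0094 (Ccl17, LP CD103+ against CD11b+), and -0.0747 and -0.2162 (Cxcl9, LN CD103+ and double-positive against CD11b+). Leaving out both replicate 3 libraries gave -0.1805 (Ccl4, tissue, CD11b+), -0.0321 (Cxcl9, tissue, double-positive) and -0.036 (Ccl22, LN double-positive against CD103+). With 1 library left out, the range was -0.1852 to 0.2908 for Ccl4 (tissue, CD11b+), -0.0868 to 0.2373 and -0.1941 to 0.0862 for Ccl17 (tissue, CD103+ and double-positive), -0.0942 to 0.2307 for Ccl17 (LP CD103+ against CD11b+), -1.1409 to 0.1201 for Cxcl2 (tissue, CD103+), -0.1421 to 1.091 for Cxcl2 (LP double-positive against CD11b+), -0.0829 to 0.3289 for Cxcl9 (tissue, double-positive), -0.0197 to 0.3917 and -0.3547 to 0.0568 for Cxcl9 (LN double-positive against CD11b+ and CD103+), and -0.0349 to 0.19 for Ccl22 (LN double-positive against CD103+). The causes were not tested. With the replicate block over all libraries, the F test called 10 ligands in place of 7, Ccl3, Ccl22 and Cxcl2 being added at adjusted p = 0.00201, 0.00136 and 0.00112 (over all their alternatives, 0.00201 to 0.0365, 0.00036 to 0.0503 and 0.00112 to 0.145), and Cxcl2 was called higher in LN double-positive than in CD103+ DCs (log2 1.69). That block joined LP and LN libraries by number, although Xist shows that these did not come from the same set of animals. With the block on LP libraries alone, where same-numbered libraries deviated together, 0 of 30 ligand calls changed. Depth was least for Ccl3 in LP CD103+ DCs, with 39 counts in the lowest library.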
